A study of Mus musculus with 4 samples.

Results

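The tumour suppressor p53 and 9 genes that it is known to act on were described in mouse embryonic stem cells with and without the Tet enzymes. The 10 genes were Trp53, Mdm2, Cdkn1a, Pmaip1, Bbc3, Bax, Perp, Plk2, Ccng1 and Trp53inp1. They were taken by gene symbol from the 22492 symbols of the expression tables, where each had a single row, and the DNA methylation of each gene's interval and surroundings was taken from the bisulfite data. The cells were E14Tg2a embryonic stem cells, unmodified (WT) or with CRISPR mutations in Tet1, Tet2 and Tet3 (TetTKO). Each genotype had 1 RNA-seq library and 1 whole-genome bisulfite sequencing library, 4 libraries in all, so no difference given here has a replicate check and no test was possible.

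For the TetTKO cells, E14 cells in medium with a MEK and a GSK3 inhibitor were transiently transfected with px330 vectors carrying guide RNAs against the 3 genes, together with a vector for puromycin resistance, and were selected with puromycin. Transfection and selection are described for the knockout only. Viable clones were picked, and the labels do not say how many clones the TetTKO libraries came from. By mass spectrometry the submitters detected no 5-hydroxymethylcytosine in the TetTKO cells. Both genotypes were then kept in serum and LIF for at least 17 days before harvest. Tet1 had 15.1 FPKM in WT against 4.36 in TetTKO (FPKM is the number of sequenced fragments scaled by transcript length and library size), Tet2 had 14.9 and 4.13, and Tet3 had 0.32 and 0.27. The bisulfite libraries listed 14323377 CpGs, each read at least 5 times in both, and the mean coverage over the members' intervals lay between 7.23 and 10.7 reads in WT and between 8.17 and 11.3 in TetTKO. The read depth of the RNA libraries is unknown.

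p53 is a transcription factor that is held at a low level because the ubiquitin ligase Mdm2 marks it for degradation. DNA damage and other stress release it from Mdm2, and it then binds pairs of a 10-base motif and raises the transcription of genes that stop the cell cycle, start apoptosis or, as Mdm2 does, shut p53 off again. Mouse embryonic stem cells carry much p53 protein, have almost no G1 checkpoint and respond to damage mainly by apoptosis or differentiation. Most of this control acts on the p53 protein, which neither assay measured.

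The sequences upstream of the transcription starts are shown because they were searched for the p53 motif, and because the methylation of the same stretches is given below. Motifs elsewhere in or near the genes were not searched for. RefSeq (GRCm38.p6) gave 10 start sites for 7 of the genes, Trp53, Mdm2, Cdkn1a, Bbc3, Bax, Plk2 and Ccng1. Perp, Pmaip1 and Trp53inp1 had no entry. Each line gives the 250 bases before a start, 5′ to 3′ in the direction of the gene, and capitals mark matches to the 10-base p53 consensus, which is its own reverse complement and so covers both strands. Cdkn1a is shown at 2 starts, at chr17:29090729-29090978 (plus strand, upstream start) and chr17:29093519-29093768 (plus strand, inner start). Trp53 is at chr11:69580109-69580358 (plus strand), Mdm2 at chr10:117710759-117711008 (minus strand), Ccng1 at chr11:40755287-40755536 (minus strand), Bax at chr7:45466899-45467148 (minus strand) and Plk2, the one of these 7 genes with the largest log2 fold change of RNA, at chr13:110394794-110395043 (plus strand).
Cdkn1a, upstream start: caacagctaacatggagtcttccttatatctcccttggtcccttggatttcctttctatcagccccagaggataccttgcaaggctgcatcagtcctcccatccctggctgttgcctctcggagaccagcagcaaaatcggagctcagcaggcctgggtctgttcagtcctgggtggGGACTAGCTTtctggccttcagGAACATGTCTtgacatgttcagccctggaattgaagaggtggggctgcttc
Cdkn1a, inner start: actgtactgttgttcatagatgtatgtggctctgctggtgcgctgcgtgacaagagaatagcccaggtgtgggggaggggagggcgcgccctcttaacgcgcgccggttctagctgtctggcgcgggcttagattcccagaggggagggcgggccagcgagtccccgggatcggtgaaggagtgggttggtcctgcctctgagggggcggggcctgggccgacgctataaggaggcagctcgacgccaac
Trp53: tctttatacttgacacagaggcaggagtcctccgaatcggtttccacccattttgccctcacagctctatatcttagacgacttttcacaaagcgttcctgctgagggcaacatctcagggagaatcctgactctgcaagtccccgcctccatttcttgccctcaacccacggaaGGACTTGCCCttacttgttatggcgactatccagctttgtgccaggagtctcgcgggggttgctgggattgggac
Mdm2: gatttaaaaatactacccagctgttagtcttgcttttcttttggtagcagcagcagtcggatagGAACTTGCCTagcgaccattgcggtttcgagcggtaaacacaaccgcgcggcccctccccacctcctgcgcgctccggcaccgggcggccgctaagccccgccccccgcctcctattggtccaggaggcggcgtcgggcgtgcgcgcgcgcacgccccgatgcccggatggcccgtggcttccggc
Ccng1: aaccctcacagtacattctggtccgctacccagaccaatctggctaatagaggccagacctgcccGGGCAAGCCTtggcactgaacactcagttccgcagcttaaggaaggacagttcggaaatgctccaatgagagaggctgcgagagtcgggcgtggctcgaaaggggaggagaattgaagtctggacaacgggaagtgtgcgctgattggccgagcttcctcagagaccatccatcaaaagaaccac
Bax: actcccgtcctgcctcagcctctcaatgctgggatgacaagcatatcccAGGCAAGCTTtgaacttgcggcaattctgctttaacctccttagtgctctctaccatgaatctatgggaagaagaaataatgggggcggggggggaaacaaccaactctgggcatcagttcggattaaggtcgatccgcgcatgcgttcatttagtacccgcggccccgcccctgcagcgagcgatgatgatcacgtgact
Plk2: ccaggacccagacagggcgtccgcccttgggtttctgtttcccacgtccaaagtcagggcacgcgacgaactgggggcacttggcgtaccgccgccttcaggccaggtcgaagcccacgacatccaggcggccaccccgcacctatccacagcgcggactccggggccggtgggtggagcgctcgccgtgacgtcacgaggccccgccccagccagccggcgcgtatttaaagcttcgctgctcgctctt

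The 10-base motif was present in 5 of the 10 entries, 1 for each of Cdkn1a, Trp53, Mdm2, Ccng1 and Bax. Among all 32851 RefSeq entries of the same length (250 bases before to 50 after a start) it was present in 8.36%. The upstream start of Cdkn1a had 2 copies, GGACTAGCTT beginning 73 bases and GAACATGTCT beginning 51 bases before the start. They lie close enough (at most 13 bases between them) to count as the full p53 consensus by the rule used here, which 0.0731% of all entries held. The stretch directly after GAACATGTCT, tgacatgttc, misses the 10-base consensus at its first base alone and is not marked. Mdm2 had GAACTTGCCT 186 bases before its start, Ccng1 had GGGCAAGCCT at 185, Bax had AGGCAAGCTT at 201 and Trp53 had GGACTTGCCC at 75. The Plk2 entry, the inner Cdkn1a start and the 3 Bbc3 entries had no match in these windows. A match is a description of the letters and not a measured binding site. CpG content also differed, with 2 CpGs in the printed stretch of the upstream Cdkn1a start and 19 in that of its inner start, against 29 for Mdm2, 28 for Plk2, 14 for Bax, 11 for Ccng1 and 9 for Trp53.

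Trp53 mRNA was nearly the same in both libraries. Trp53 (mm9 chr11:69393861-69405375) had 20.1 FPKM in WT against 20.9 in TetTKO, a plain ratio of 1.04 and a log2 fold change of 0.06. Here and below the log2 fold change is that of TetTKO against WT on FPKM plus a pseudocount of 1, which understates differences of low genes. Of the 10978 genes that reached 1 FPKM in one of the libraries, 58.7% had a lower log2 fold change than Trp53. Its paralogs were near the floor, Trp63 with 0.02 FPKM in both libraries and Trp73 with 0.36 and 0.49. In bulk libraries such as these, fewer cells that express a gene and less RNA per cell cannot be told apart.

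The members Mdm2, Ccng1 and Trp53inp1, which feed back on p53, were higher in the TetTKO library. Mdm2, the ubiquitin ligase (chr10:117125961-117147772), had 41.1 FPKM in WT against 57.7 in TetTKO, 1.40-fold higher with a log2 fold change of 0.48. Ccng1 (chr11:40562054-40568788), which encodes cyclin G1, a protein that recruits a phosphatase to Mdm2, had 102 FPKM in WT against 141 in TetTKO, 1.39-fold higher with a log2 fold change of 0.47. Trp53inp1 (chr4:11083588-11101524), whose nuclear protein promotes p53 phosphorylation and autophagy, had 69.1 and 86.0 FPKM, 1.25-fold higher. These 3 differences were modest. The log2 fold changes of Mdm2 and Ccng1 were above those of 90.8% and 90.5% of genes, and that of Trp53inp1 above 83.6%.

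The 2 cell cycle genes differed in opposite directions. Cdkn1a (chr17:29227931-29237667), which encodes the cyclin-dependent kinase inhibitor p21 and is the best known p53 target, had 3.81 FPKM in WT against 2.23 in TetTKO. It was thus 1.71-fold lower in TetTKO, with a log2 fold change of -0.57, below which 5.49% of genes lay. It was also the member with the least mRNA in each library. Plk2 (chr13:111185252-111191051), a polo-like kinase that p53 induces after damage, had 29.99 FPKM in WT against 62.0 in TetTKO, 2.07-fold higher with a log2 fold change of 1.02.

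Among the apoptosis genes, Pmaip1 and Perp were higher in TetTKO, Bbc3 was lower and Bax was close to equal. Pmaip1 (chr18:66618258-66625212), which encodes the BH3-only protein Noxa that neutralises Mcl1, had 5.33 FPKM in WT against 15.3 in TetTKO, 2.88-fold higher with a log2 fold change of 1.37. It ranked 69 of all 10978 genes from the highest log2 fold change down. Perp (chr10:18564877-18576878), a membrane protein of desmosomes that promotes apoptosis, had 17.3 and 42.0 FPKM, 2.43-fold higher with a log2 fold change of 1.23 and rank 97. Bbc3 (chr7:16894932-16903683), which encodes the BH3-only protein Puma, had 12.1 FPKM in WT against 9.26 in TetTKO, 1.31-fold lower with a log2 fold change of -0.36. Bax (chr7:52717065-52722268), the pore-forming protein that BH3-only proteins set off, had the most mRNA of the members, 288 FPKM in WT against 266 in TetTKO, a log2 fold change of -0.11. The BH3-only genes Pmaip1 and Bbc3 thus differed in opposite directions between the same libraries.

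**Figure D1:**
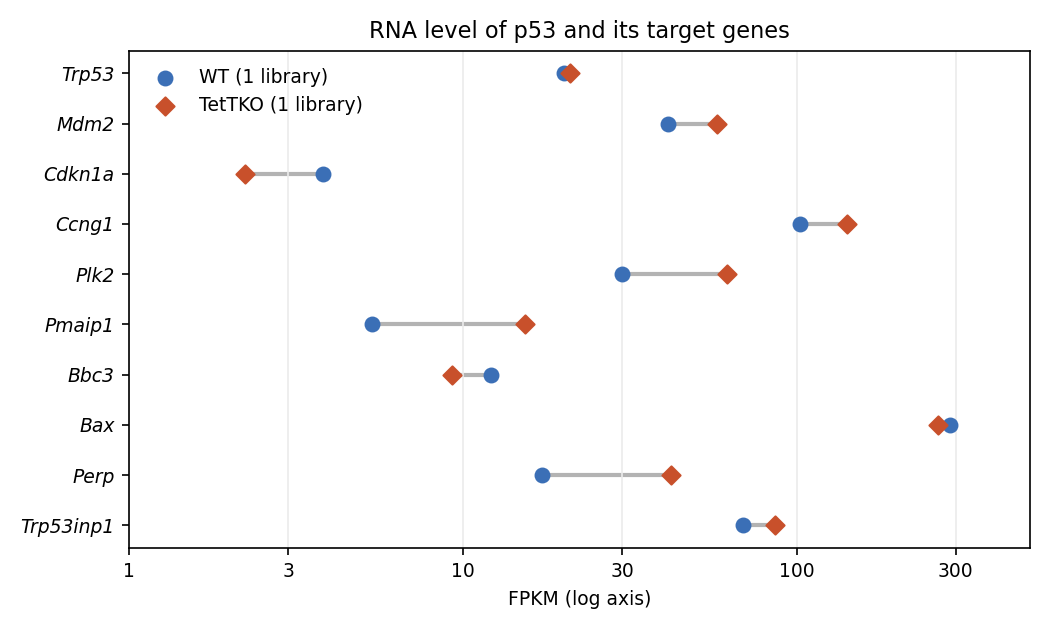
RNA level of the 10 genes in FPKM on a log axis, 1 point for each library (WT and TetTKO), with a line joining the points of a gene. Pmaip1, Perp and Plk2 have the longest lines toward higher values in TetTKO (5.33 to 15.3, 17.3 to 42.0 and 29.99 to 62.0 FPKM), and Cdkn1a has the longest toward lower values (3.81 to 2.23).

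Counted together, 7 members were higher in TetTKO and 3 (Cdkn1a, Bbc3 and Bax) were lower, against 48.8% of all genes that were higher by any size. Pmaip1, Perp and Plk2 were at least 2-fold higher, and 1.77% of all genes were. No member was at least 2-fold lower, as 0.847% of all genes were. With a pseudocount of 5 FPKM in place of 1, Perp alone of the 10 reached 2-fold. The median log2 fold change of the members was 0.39, beside -0.0078 over all genes. Their summed level was 589 FPKM in WT against 703 in TetTKO. The median log2 fold change of genes on the members' chromosomes lay between -0.06 (chromosome 7) and 0.08 (chromosome 11). Chromosome 6 stood apart in the TetTKO library, with a median of -0.52 over 309 genes of at least 5 FPKM, and none of the 10 members lies on it.

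Most of the other target genes were higher in TetTKO by less than 2-fold. Of 44 further p53 target genes with at least 1 FPKM (47 were listed), 30 were higher in TetTKO and 14 lower, and their median log2 fold change was 0.20. By size, 2 were at least 2-fold higher and 2 at least 2-fold lower, beside the 1.77% and 0.847% of all genes, and with a pseudocount of 5 FPKM 0 were in either direction. Among those at least 2-fold higher was Tap1, a peptide transporter (1.65 and 5.35 FPKM, log2 fold change 1.26). At least 2-fold lower were Bid (40.3 and 18.9 FPKM, -1.05) and Tigar, listed as 9630033F20Rik (28.8 and 13.5 FPKM, -1.04). Bid, which links death receptors to Bax, and Tigar, a regulator of glycolysis, both lie on chromosome 6. Without the genes of chromosome 6, 29 of 40 targets were higher, with a median of 0.23, and none was 2-fold lower.

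By role, the 15 other arrest and repair targets divided into 10 higher and 5 lower, and their median log2 fold change was 0.27. Among the 10 is a gene that reached 1 FPKM in TetTKO alone (0.61 and 1.21 FPKM), so it could only count as higher. It is also counted among all the targets above. Gadd45a, a stress sensor of chromosome 6, had 36.6 and 44.8 FPKM, Sfn, the checkpoint protein 14-3-3 sigma, had 25.8 and 31.3, and Ercc5, a nuclease of excision repair, had 6.49 and 12.3. Of the 13 other apoptosis targets 9 were higher and 4 lower, with a median of 0.17, among them Siva1, a death receptor adaptor, with 146 and 138 FPKM and the nuclease gene Aen with 76.4 and 89.1. Of 16 targets with other functions 11 were higher and 5 lower, also with a median of 0.17. Rps27l, a ribosomal protein that p53 induces, had 873 FPKM in WT against 995 in TetTKO, and Psrc1, a microtubule protein, had 67.8 and 94.2.

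Genes that act on p53 itself were below 2-fold on this scale, with 1 of them, Smyd2, at the border. Of 18 measured regulators 12 were higher and 6 lower, and their median log2 fold change was 0.15. Usp7, which removes ubiquitin from Mdm2 and p53, had 94.6 and 106 FPKM, and the damage kinase Chek2 had 45.1 and 36.3. Smyd2, a methyltransferase that restrains p53, had 11.7 FPKM in WT against 24.0 in TetTKO, a plain ratio of 2.05 and a log2 fold change of 0.98. With a pseudocount of 0.1 FPKM, or after centring on the median, this 1 regulator counted as 2-fold higher. Of the 9 measured genes of the Bcl-2 family outside the members and the target lists, 5 were higher and 4 lower, with a median of 0.06, which was -0.10 with 2 of 6 higher among those of at least 5 FPKM. Mcl1, the survival protein that Noxa binds, had 123 and 156 FPKM, Bok, a relative of Bax, had 15.1 and 13.03, and Bcl2l11, the BH3-only protein Bim, had 2.27 and 3.82. Of 12 genes of the G2 and M phases, which p53 is known to repress through p21, 4 were higher and 8 lower, with a median of -0.08, and Ccnb1, the mitotic cyclin B1, had 328 FPKM in WT against 271 in TetTKO. Top2a, the topoisomerase of dividing cells, had 235 and 264, and Bub1, a spindle checkpoint kinase, had 38.7 and 54.0.

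**Figure D2:**
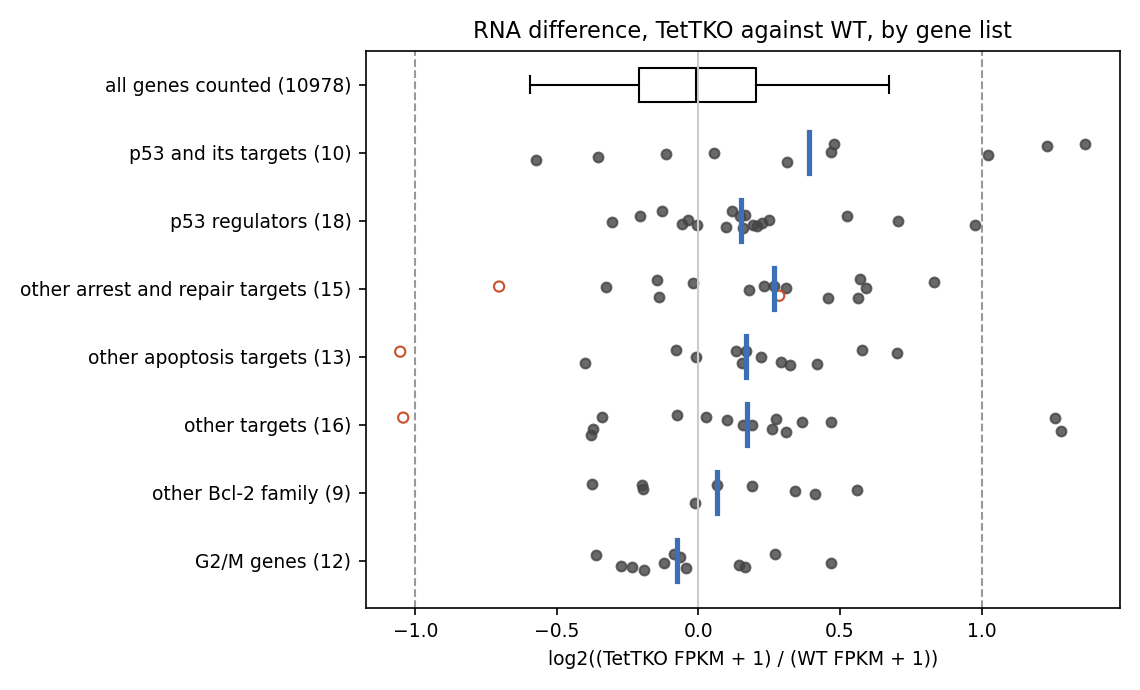
Log2 fold change of TetTKO against WT (FPKM plus 1) of each gene of at least 1 FPKM in the 10 members and in 6 gene lists of the pathway, with genes of chromosome 6 as hollow orange points and each median as a blue bar. The box for all genes shows the quartiles with whiskers at the 5th and 95th percentiles, and dashed lines mark 2-fold; 3 members lie beyond the upper line and none beyond the lower.

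Markers of embryonic stem cells were high in both libraries. The 8 markers summed to 6036 FPKM in WT against 5929 in TetTKO, with 2 higher and 6 lower in TetTKO, and Dppa5a had 3211 and 3344 FPKM, Pou5f1 1178 and 1092, and Esrrb 49.3 and 26.4. Markers of fibroblasts or feeder cells summed to 1.58 and 2.37 FPKM over 7 genes. Of these, 6 were under 1 FPKM in both libraries, Lum was listed at 0 in both and Dcn at 0 in WT. Markers of primitive endoderm, a cell type that such cultures form spontaneously, were higher in TetTKO for 6 of 6 genes. Without a filter on low values, 44.3% of all genes were higher. The sums were 2.11 and 6.58 FPKM, and Gata4 had 0.45 and 1.19 while Dab2 had 0.72 and 2.13. All 6 markers of these cells were under 1 FPKM in WT, and the 4 that reached 1 FPKM did so in TetTKO alone. The part of these cells in the RNA differences of the members was not tested.

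Methylation is given as the mean over CpGs of the share of reads that were methylated. Bisulfite sequencing reads 5-methylcytosine and 5-hydroxymethylcytosine alike. Over the genome it averaged 69.5% in WT against 65.0% in TetTKO.

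The CpG-rich starts that could be placed, those of 7 of the genes, were unmethylated or nearly so in both libraries. The 300-base RefSeq entries were placed on the mm9 data by the spacing of their CpGs, and every listed CpG of each placement matched. All 9 entries with at least 10 CpGs had a mean of at most 1.11% in WT and at most 1.14% in TetTKO. At Mdm2 0 of 357 read calls were methylated in WT and 0 of 307 in TetTKO, which allows up to 0.840% and 0.977%. At Plk2 there were 0 of 131 and 0 of 116, which allows up to 2.29% and 2.59%. The inner start of Cdkn1a had 0 of 169 and 0 of 187, which allows up to 1.78% and 1.60%. These limits (3 calls of the total) and the intervals below cover counting error only, and are too narrow because a read counts once for each CpG it covers. At Trp53, Bbc3, Bax and Ccng1 the calls likewise showed at most 1.24% in either library. The limits were widest for 1 Bbc3 entry with 5 listed CpGs, with 0 of 33 and 0 of 26 calls, which allows up to 9.09% and 11.5%. Its placement scored 5 and the next best 4 (matched minus unmatched CpGs).

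The upstream start of Cdkn1a, the entry with the full p53 consensus, was the exception. Its 2 CpGs were methylated in 46.2% of 13 read calls in WT (exact 95% binomial interval 19.2% to 74.9%) and in 68.0% of 25 in TetTKO (46.5% to 85.1%). The intervals overlap, and at this depth the values do not settle whether the 2 libraries differ here. The placement of this entry rests on the 2 CpGs alone. The inner start lies 2783 bp inside the mm9 interval of Cdkn1a.

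The CpG-rich ends of the intervals, taken from 1000 bp outside to 500 bp inside, were slightly more methylated in TetTKO. All members but Cdkn1a had 1 end with at least 20 CpGs and under 10% methylation in WT. All 9 of these ends were higher in TetTKO, beside 83.1% of the 11264 such ends of all genes. The median difference was 2.77 percentage points for the members and 1.00 for all. Bbc3 had 1.69% in WT and 5.37% in TetTKO (49 CpGs), Pmaip1 1.34% and 5.15% (95 CpGs), Ccng1 1.93% and 5.29% (51 CpGs) and Plk2 0.914% and 3.69% (84 CpGs). Trp53 (0.925% and 1.81%), Mdm2 (0.502% and 1.65%), Trp53inp1 (0.424% and 1.73%) and Bax (0.551% and 0.578%) differed by less. Perp had 6.20% and 9.45% by the mean over CpGs but 8.37% and 7.37% by pooled reads. When the ends reached only 500 bp outside the interval, the median difference was 0.354 points, with Mdm2 at -0.31. The lower-coordinate end of Bax, which faces Ftl1 and has 19 CpGs, had 2.85% and 10.9%. The lower-coordinate end of Cdkn1a, at its upstream start, had 54.7% and 71.7% over 6 CpGs, with overlapping counting intervals by pooled reads (44.1% to 70.4% and 60.4% to 83.0%), and a difference of -2.71 points over 14 CpGs when the end reached farther outside. Of the members' 7 ends of at least 5 CpGs at or above 50% in WT, 5 were lower in TetTKO, beside 75.2% of all such ends.

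**Figure D3:**
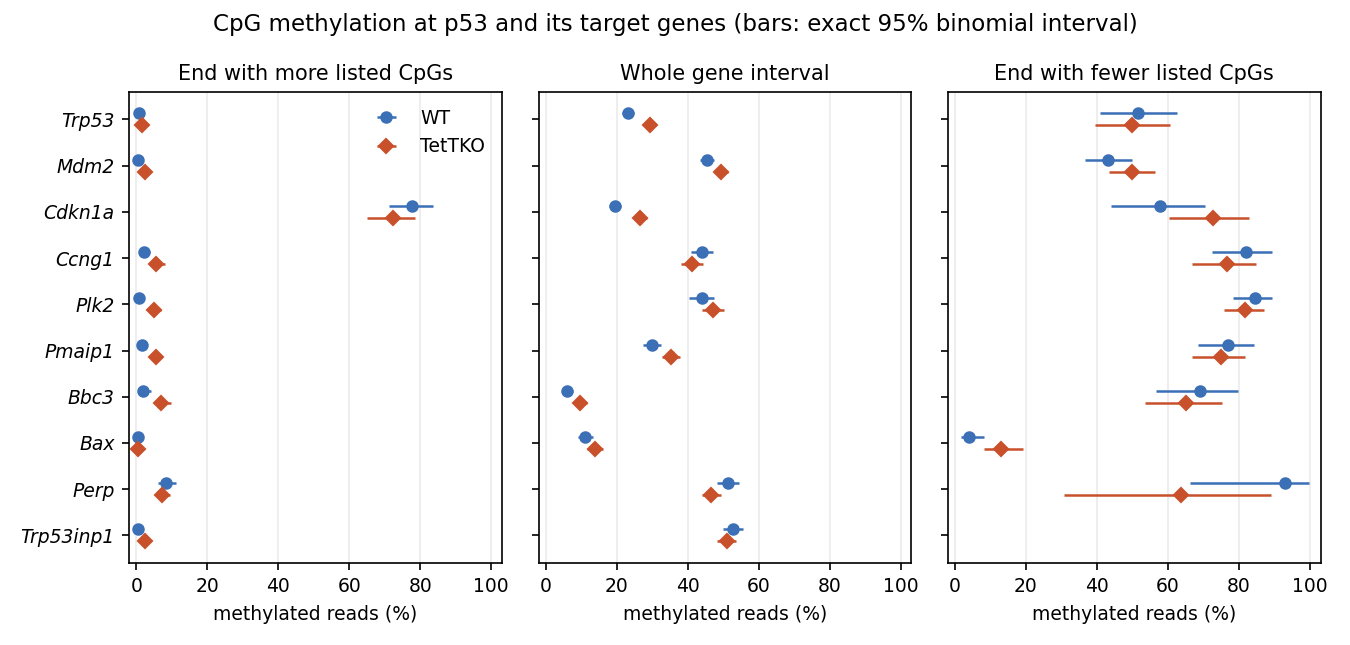
Pooled methylated reads in percent, WT and TetTKO, with exact 95% binomial intervals (counting error only), over the whole interval, the CpG-denser end and the other end of each gene. The denser ends lie near 0 except for Cdkn1a, whose CpG-rich start lies inside its interval, and Trp53inp1 has no listed CpG at its other end.

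Over whole gene intervals, 7 of the 10 members had more methylation in TetTKO, while 30.8% of the 21476 gene intervals did. In WT the members' intervals had a median methylation of 35.3%, against 65.3% for all, so the 2 shares cover unlike starting levels. Windows under 10% and of at least 70% in WT are given by class below. The median difference was 2.20 points for the members and -3.02 for all gene intervals. Over CpGs with a coverage of at least 10, 5 of the 10 members were higher and their median was 0.458 points. Cdkn1a had 18.6% in WT and 25.9% in TetTKO over 250 CpGs, 7.21 points higher. Trp53 had 26.0% and 31.9% over 234 CpGs, and Mdm2 had 43.6% and 49.2% over 229. These 3 were at least 5 points higher, as 9.99% of gene intervals were. By pooled reads the counting intervals of Cdkn1a were 18.0% to 21.3% in WT and 24.9% to 28.6% in TetTKO, without overlap. Those of Trp53 were 21.4% to 24.9% and 27.7% to 31.2%, also without overlap. The counting intervals of Pmaip1 and Bbc3 did not overlap either, and those of the remaining members did. Mdm2 was 3.94 points higher by pooled reads, with counting intervals of 43.4% to 47.5% and 47.4% to 51.3%. How often such counting intervals separate over all genes was not tested. Pmaip1 (28.9% and 32.8%), Bax (12.0% and 14.7%), Bbc3 (6.85% and 8.55%) and Plk2 (42.2% and 43.6%) were higher by less. Ccng1 (41.6% and 36.6%), Trp53inp1 (46.7% and 44.9%) and Perp (50.9% and 49.7%) were lower. Restricted to CpGs with a coverage of at least 10, the Plk2 interval turned to -12.8 points over 8 CpGs and that of Pmaip1 to -1.12.

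Windows of 1 kb with at least 5 CpGs, inside the intervals and within 10 kb of them, located these differences. Of 242 such windows 5 (2.07%) were at least 30 points higher in TetTKO, beside 0.67% of all 1223855 windows, and none was 30 points lower, beside 0.638%. At 20 points the members had 23 higher (9.50%) and 7 lower (2.89%), beside 2.4% and 6.41% of all windows. By any size 45.0% of member windows were lower, beside 72.1% of all. The members' windows were less methylated in WT, with a median of 66.3% against 79.9% for all. Of those at least 70% methylated in WT, 85 of 105 were lower, as were 781097 of 929295 of all. No window of this class was 30 points higher, and the largest rise was 28.6 points. The class held 105 of the members' 242 windows and 929295 of all 1223855. The shares at 30 points thus cover unlike starting levels. Of the members' windows under 10% in WT, 31 of 38 were higher, as were 27470 of 32128 of all. Within these 2 classes the members' shares were thus near those of all windows. The 5 windows at least 30 points higher lay between the classes, at 10% to 70% in WT. For that middle range the members' shares were not set beside those of all windows. Windows next to one under 10% methylated in WT were higher for 18 of 23 members' windows, beside 67.2% of such windows in all, with medians of 8.83 and 4.91 points.

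At Cdkn1a the 2 windows with the largest differences lay inside the gene, past the unmethylated region of its inner start. The window at 29234000 to 29234999 had 23.8% in WT and 53.8% in TetTKO (7 CpGs), and the next, 29235000 to 29235999, had 36.5% and 65.7% (37 CpGs). The pooled intervals of the first overlapped, at 13.3% to 38.9% over 49 read calls and 36.8% to 64.9% over 53. Those of the second were 32.8% to 43.5% over 334 read calls and 60.8% to 72.2% over 276. Higher values in TetTKO were also found on the other side of the unmethylated region, from 29229000 (48.7% and 67.8%, 18 CpGs), and outside the gene from 29220000 (55.3% and 78.2%, 13 CpGs), while the window from 29233000 had 42.1% and 38.3% (11 CpGs). Cdkn1a was also the member with the lowest log2 fold change of RNA. Whether the values of RNA and methylation are connected was not tested.

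At Trp53 the window at 69404000 to 69404999, near the higher-coordinate end of the interval, had 49.3% and 83.2% (9 CpGs), while Trp53 RNA was nearly the same in both libraries. Another, 69414000 to 69414999 (23.8% and 57.6%, 19 CpGs), lies in the interval of Atp1b2. The other windows of at least 30 points lay beside Pmaip1, from 66608000 (27.7% and 59.1%, 12 CpGs) and from 66635000 (20.1% and 53.5%, 17 CpGs), outside its interval. Near Mdm2 the window from 117149000 had 15.4% and 42.1% (13 CpGs), and the window from 117120000, in the interval of Cpm, had 17.2% and 45.0% (37 CpGs). Inside Plk2 the window from 111186000 had 38.8% and 63.3% (15 CpGs).

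Ccng1 had differences of both signs inside its interval. Its window from 40567000, beside the start, had 13.7% and 36.4% (9 CpGs), and that from 40564000 had 84.8% and 56.7% (15 CpGs), the lowest difference of any member window at -28.2 points. Perp, whose RNA was 2.43-fold higher, had no window that differed by 20 points in either direction, with a range from -18.0 to 13.5.

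**Figure D4:**
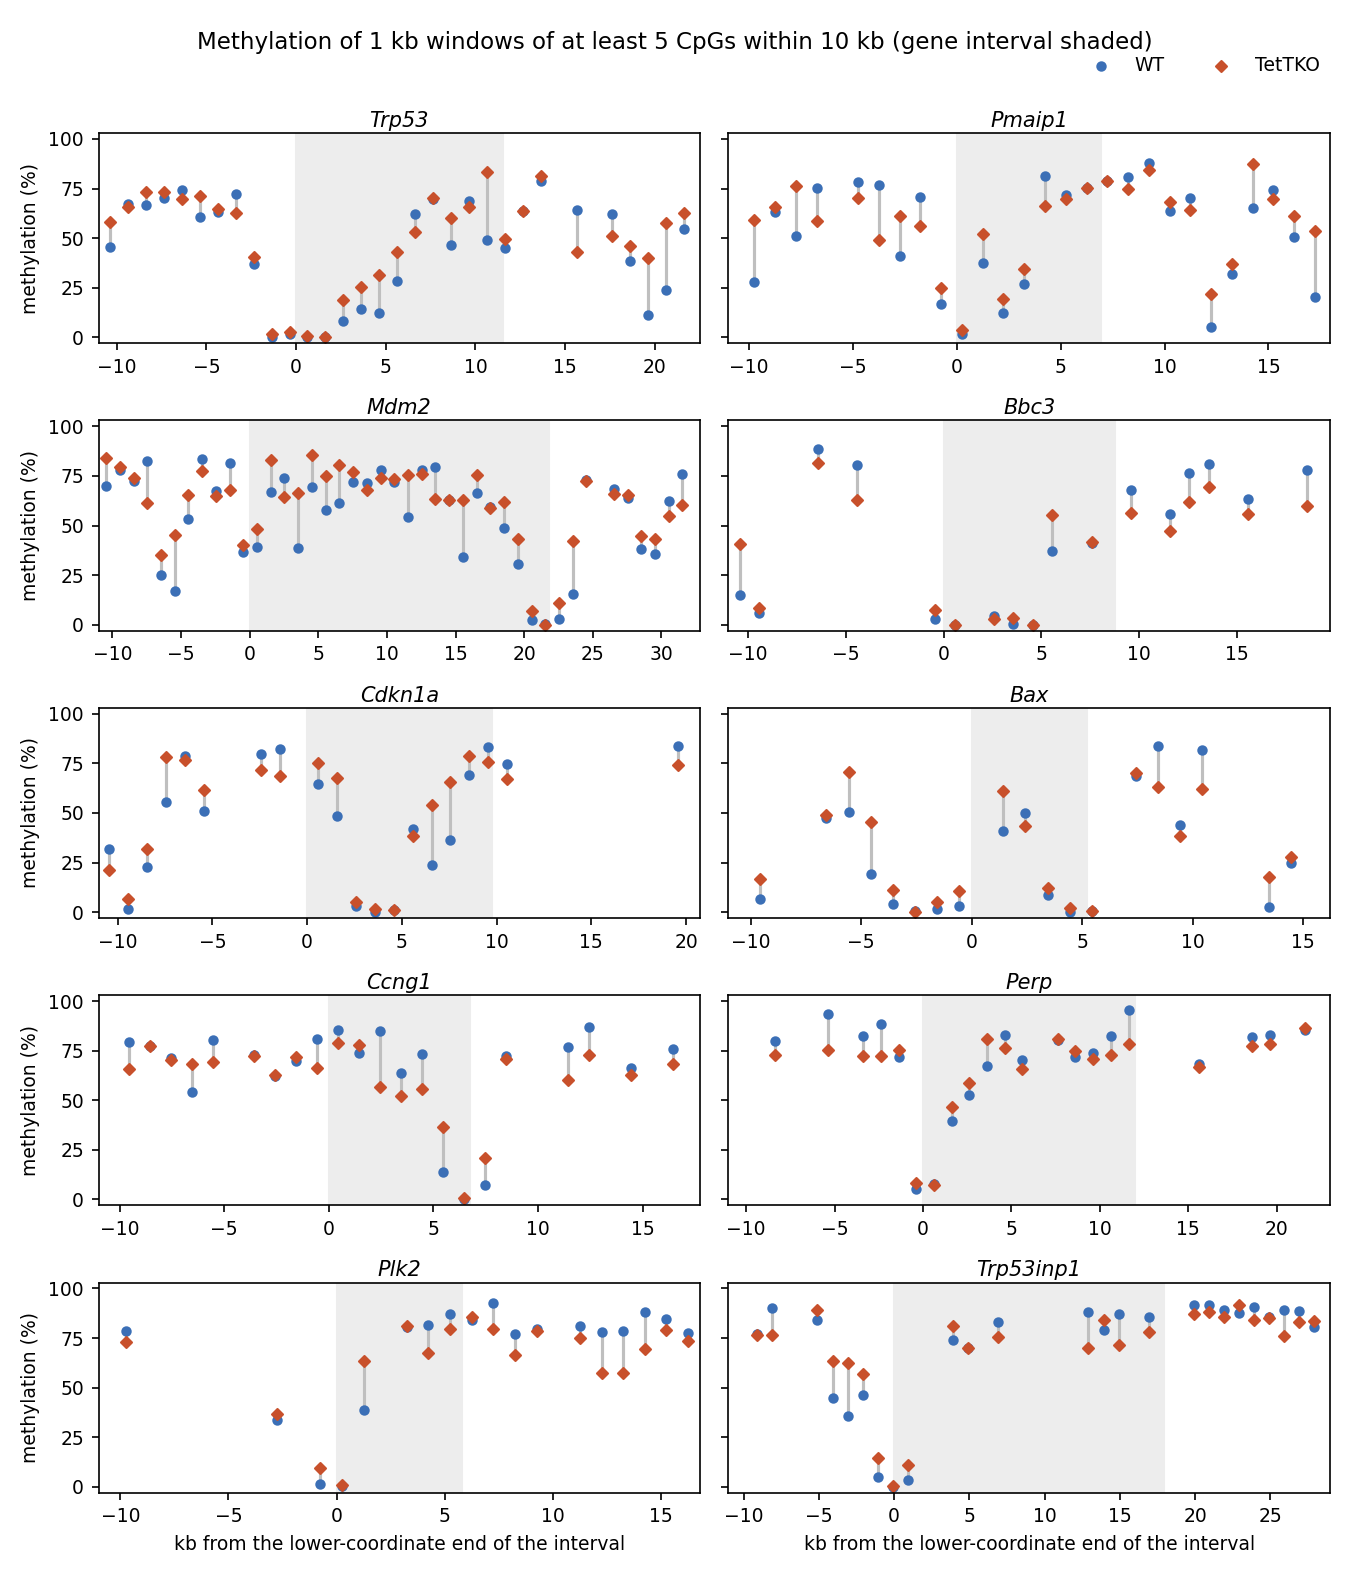
Methylation in percent of 1 kb windows of at least 5 CpGs within 10 kb of each gene, WT as circles and TetTKO as diamonds joined by a line, by distance in kb from the lower-coordinate end of the interval (shaded). Each member has windows under 10% in WT, and the Cdkn1a windows 6 to 8 kb into the interval have TetTKO diamonds well above WT circles (23.8% and 53.8%, 36.5% and 65.7%).

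Side by side, the 3 members whose RNA was at least 2-fold higher differed in interval methylation by 3.85 points (Pmaip1), -1.24 (Perp) and 1.45 (Plk2). The 3 members with lower RNA differed by 7.21 (Cdkn1a), 1.69 (Bbc3) and 2.70 points (Bax). With 1 library per group and assay these values are a description.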

How the data were processed

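RNA-seq and whole-genome bisulfite data came from 1 WT and 1 TetTKO library each. The deposited expression tables hold FPKM per gene, and the deposited methylation tables hold, for each CpG, the fraction of methylated reads beside the methylated and total read counts. The submitters' processing notes name Trim Galore, Bismark 0.7.9, Bowtie, SAMtools, TopHat2 2.0.2, Cufflinks 2.0.2 and mm9. For gene models and settings, nothing is given in the sources used here.

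Rows of a symbol were summed, 6 short RNA genes were left out, and genes of at least 1 FPKM in either library were compared as log2((TetTKO + 1)/(WT + 1)). A gene that passed through 1 library alone could differ only in that direction; all 10 members passed. Methylation was averaged over CpGs of intervals, ends and 1 kb windows with at least 5 CpGs; read shares have exact 95% binomial intervals. The median coverage was 8 in WT and 10 in TetTKO. The tables give no strand, so both ends of an interval were used. Promoter sequences of RefSeq were placed by matching CpG spacing within the mm9 positions, without converting coordinates. The mm9 exons, introns and UTRs were not used here.

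Members, lists and size rules were chosen with earlier results of these data known, and the classes of ends of at least 20 CpGs under 10% and of windows beside a low window after values were seen. All members are named. From each other list the text names genes past 2-fold, the 2 with the highest WT level and the 1 farthest from 0 in log2 fold change; markers at 0 (Lum, Dcn) and neighbours of members were added after their values were seen. One gene that this rule picks is not reported here. Alternatives were the pseudocount, filters, centring, coverage and CpG minimums, end length and pooled reads. The calculations were tested on simulated data. Python 3.11.15, numpy 2.4.6, pandas 2.3.3, scipy 1.17.1 and matplotlib 3.10.9 were used.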

Additional observations from a re-analysis of the deposited data

How the results depend on the processing

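No paired analysis was possible because each group had 1 library per assay. A pseudocount or filter cannot turn the direction of a gene's RNA difference, and centring turned none of the members'. With a pseudocount of 5 FPKM, 1 member was at least 2-fold higher, beside 40 genes higher and 28 lower in all; with 0.1 the genes numbered 479 and 214, against 194 and 93 with 1. The low ends had a median difference of 0.354 points when they reached 500 bp outside, with 8 of 9 higher. Windows at least 30 points higher numbered 3 with at least 10 CpGs and 2 with a coverage of at least 10, and 23 at 20 points. Windows at least 30 points lower numbered 1 with at least 3 CpGs, and 7 at 20 points. The median interval difference was 0.458 points with a coverage of at least 10, with 5 of 10 higher, and 3.38 by pooled reads. The sign of 2 interval values turned, both with a coverage of at least 10, and 12 end values turned or reached 0 with another coverage, end length or pooled reads. Leaving out CpGs covered more than 30 times removed none of the intervals' CpGs. The causes of these shifts were not tested. Depth limits single windows and ends of few CpGs, and the unknown depth of the RNA libraries leaves low genes such as Cdkn1a without a counting error.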

Other observations

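Some members have close neighbours in the expression tables. Wrap53, a telomerase factor whose interval begins 1034 bp from that of Trp53, had 13.3 FPKM in WT and 19.8 in TetTKO, while Trp53 had 20.1 and 20.9. Ftl1, the ferritin light chain gene 1808 bp from Bax, had 1946 and 1308 FPKM. Sae1, a subunit of the SUMO activating enzyme beside Bbc3, had 230 and 193, and Nudcd2 beside Ccng1 had 155 and 130. Cpm, 1552 bp from Mdm2, had 0.3 and 0.56.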
